A study of Ovis aries with 24 samples.

Results

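Endothelial and vascular genes were followed in liver and in periventricular white matter (PVWM, brain tissue that borders its fluid-filled ventricles) from preterm lambs. They were chosen by name, by a rule that uses no measured value, but with earlier results of these data known. Of 35 symbols listed, 33 had a row in both count tables of 27716 entries, and SOX7 and VCAM1 were not analysed here. Of the 33, 32 passed the filter on low counts in each tissue, and SELE did not. Messenger RNA was sequenced after polyA selection in 4 lambs per group and tissue. Budesonide lambs were mechanically ventilated and were given poractant alfa, a surfactant extracted from pig lung, into the trachea at 2.5 mL/kg, with the glucocorticoid budesonide added at 0.25 mg/kg. Surfactant lambs were ventilated and received the same surfactant dose alone, and unventilated lambs received none of these. All were preterm: ventilated lambs were at 126 days of gestation, apart from 1 male at 127 days in each ventilated group (animal 054 with budesonide, animal 007 with surfactant), and unventilated lambs were at 127 or 128 days. Age and ventilation thus nearly coincided and cannot be told apart by these groups. Sex was also split unevenly: each ventilated group held 1 male and 3 females. Unventilated lambs of each tissue were 2 males (057 and 058), 1 female and a lamb with no sex label for that tissue. Every library of a tissue came from a different animal, and 11 animals gave both tissues. The series' title gives the question as how budesonide added to surfactant alters responses, within and beyond the lung, to injurious ventilation. The comparisons here give how these genes differed between the 3 groups in organs other than the lung.

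The endothelium lines every vessel, and its genes fall into families with known tasks. Vascular endothelial growth factors signal through the receptors KDR, FLT1 and FLT4 to drive vessel growth, permeability and lymphatic growth. ANGPT1 from cells around the vessel activates the receptor TEK and keeps vessels quiet, while ANGPT2, released by endothelial cells, competes with it in many settings. Endothelial cells activated by inflammation expose selectins, which slow passing leukocytes, and change the proteins that hold clotting in check. In liver the sinusoidal endothelium is open and scavenging, with STAB1, STAB2 and LYVE1 at its surface. The endothelium of brain forms the blood-brain barrier, a tight layer low in the fenestral protein PLVAP.

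Levels below are CPM (counts scaled to a common library size) after scaling of the libraries by the trimmed mean of M values, and changes are log2 differences ± SE from edgeR. A gene is called where edgeR's quasi-likelihood p, adjusted by Benjamini-Hochberg over all genes of that comparison, was under 0.05, and "rose" and "fell" are used of called genes. Library values in a group are given in the order of the animal numbers, which are 031, 048, 050 and 054 for budesonide, 007, 032, 049 and 051 for surfactant, and 057, 058, 059 and 060 in liver or 057, 058, 060 and 061 in PVWM for unventilated lambs.

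Library totals were 16.1 to 23.2 M counts in liver and 14.9 to 17.5 M in PVWM. The labelled tissues carried their defining markers: 8 hepatocyte genes summed to 181278 to 244379 CPM in budesonide, 227311 to 266996 CPM in surfactant and 201572 to 261957 CPM in unventilated livers, and to no more than 263 CPM in any PVWM library, while 4 astrocyte genes summed to 4494 to 5475, 4988 to 5747 and 3495 to 4242 CPM in PVWM of the same groups. On the first principal component of liver, which held 54.6% of the variance, surfactant animal 007 lay between the unventilated and the other ventilated lambs. In PVWM, surfactant animal 051 had an oligodendrocyte marker sum of 13085 CPM, against 774 to 2878 CPM in the other 11 libraries. Surfactant animal 049 had the highest value of the 12 libraries for 14 of the 32 endothelial genes in PVWM and for 11 of them in liver. In bulk tissue, fewer endothelial cells and less RNA per endothelial cell cannot be told apart, which touches every result below.

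In unventilated lambs several of the genes stood at very different levels in liver and PVWM. STAB2, the scavenger receptor for hyaluronan, averaged 205 ± 37.2 CPM in liver and 0.890 ± 0.141 CPM in PVWM on the shared scaling of both tissues (SD, n = 4 each; log2 7.84 ± 0.23, adjusted p = 2.94e-18). LYVE1, another hyaluronan receptor, stood at 127 ± 25.4 CPM in liver and 0.914 ± 0.172 CPM in PVWM (log2 7.11 ± 0.53, adjusted p = 2.48e-11). PLVAP, which forms the diaphragms of fenestrae, was at 83.0 ± 11.6 CPM in liver and 4.32 ± 1.13 CPM in PVWM (log2 4.26 ± 0.25, adjusted p = 3.39e-13), and FLT4, the receptor for the lymphatic growth factor VEGFC, at 45.6 ± 5.75 and 3.84 ± 0.694 CPM (log2 3.57 ± 0.24, adjusted p = 3.64e-12). S1PR1, the receptor for sphingosine 1-phosphate that tightens endothelial junctions, went the other way, with 16.99 ± 3.25 CPM in liver and 98.7 ± 9.21 CPM in PVWM (log2 -2.54 ± 0.26, adjusted p = 6.62e-09). Of the 32 genes, 19 were called higher and 5 lower in liver, where 36.1% and 41.7% of all 20010 genes tested were called higher and lower. The median log2 difference was 0.75 over the 32 and -0.11 over all genes. Scaling by library totals alone moved the median over all genes by -0.63, and 12 were then called higher and 9 lower. The direction then turned for ESAM, ECSCR and RAMP2, and the 5 genes given above kept their call and direction.

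In liver, ventilation with surfactant came with a rise of many endothelial genes. Relative to unventilated lambs, 15 of the 32 rose and 2 fell in surfactant livers. Those that rose include ANGPT2, the clotting inhibitor THBD, the leukocyte adhesion receptor SELP, S1PR1, ROBO4, CLEC14A, LYVE1 and VWF, and those that fell were NOS3 and PCDH12. Over all 16824 genes tested in liver, 21.6% were called higher and 19.5% lower in this comparison. The median log2 change of the 32 was 0.41, against -0.02 over all genes. With library totals in place of the trimmed mean the median over all genes moved by -0.31 and the split became 11 higher and 6 lower. With gestational age in the model 6 of the 17 calls were left, those of ANGPT2, CLEC14A, LYVE1, NOS3, PECAM1 and S1PR1, and the calls of CDH5, ENG, ERG, FLT1, FLT4, PCDH12, ROBO4, SELP, SOX17, THBD and VWF were lost. Over all genes, calls in that model went from 6911 to 1398 of 16824. With sex in the model the calls of CDH5, ENG, FLT4, SELP and SOX17 were lost. That fit dropped animal 060, which has no sex label in liver, and called 4273 of 17016 genes. The 8 stellate cell and fibroblast genes, markers of another cell type, summed to 1405 to 2065 CPM with budesonide, 1527 to 1987 CPM with surfactant and 873 to 1569 CPM without ventilation, and 2 of them rose with surfactant and 3 with budesonide against unventilated; their part in the endothelial values was not tested.

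With budesonide added, several of the genes were lower than with surfactant alone. Between budesonide and surfactant livers, 1 of the 32 rose (PLVAP) and 9 fell (KDR, FLT4, ANGPT1, CDH5, PECAM1, PCDH12, MMRN2, EGFL7 and SELP), where 4.01% of all genes were called higher and 7.85% lower. The median log2 change was -0.51 over the 32 and -0.01 over all genes. Between budesonide and unventilated livers 9 of the 32 rose and 9 fell, a median log2 change of -0.01 against 0.00 over all genes, of which 23.3% were called higher and 23.7% lower. Library totals in place of the trimmed mean gave 7 higher and 11 lower in the last comparison. With gestational age in the model 10 of its 18 calls were left, and those of ERG, FLT4, MMRN2, ROBO4, SOX18, STAB1, TIE1 and VWF were lost. Over all genes, calls there went from 7903 to 2958 of 16824. With sex in the model the calls of ERG, TIE1 and VWF were lost in that comparison, where 5738 of 17016 genes were called. In a fit of the budesonide and surfactant livers alone, the calls of CDH5, EGFL7 and SELP were lost. That fit called 884 of 16051 genes, where the main fit called 1994 of 16824. With sex in the model the calls of CDH5 and SELP were lost between these groups, where 1343 of 17016 genes were called. The comparisons share animals, so their values are set side by side gene by gene and not correlated.

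**Figure D1:**
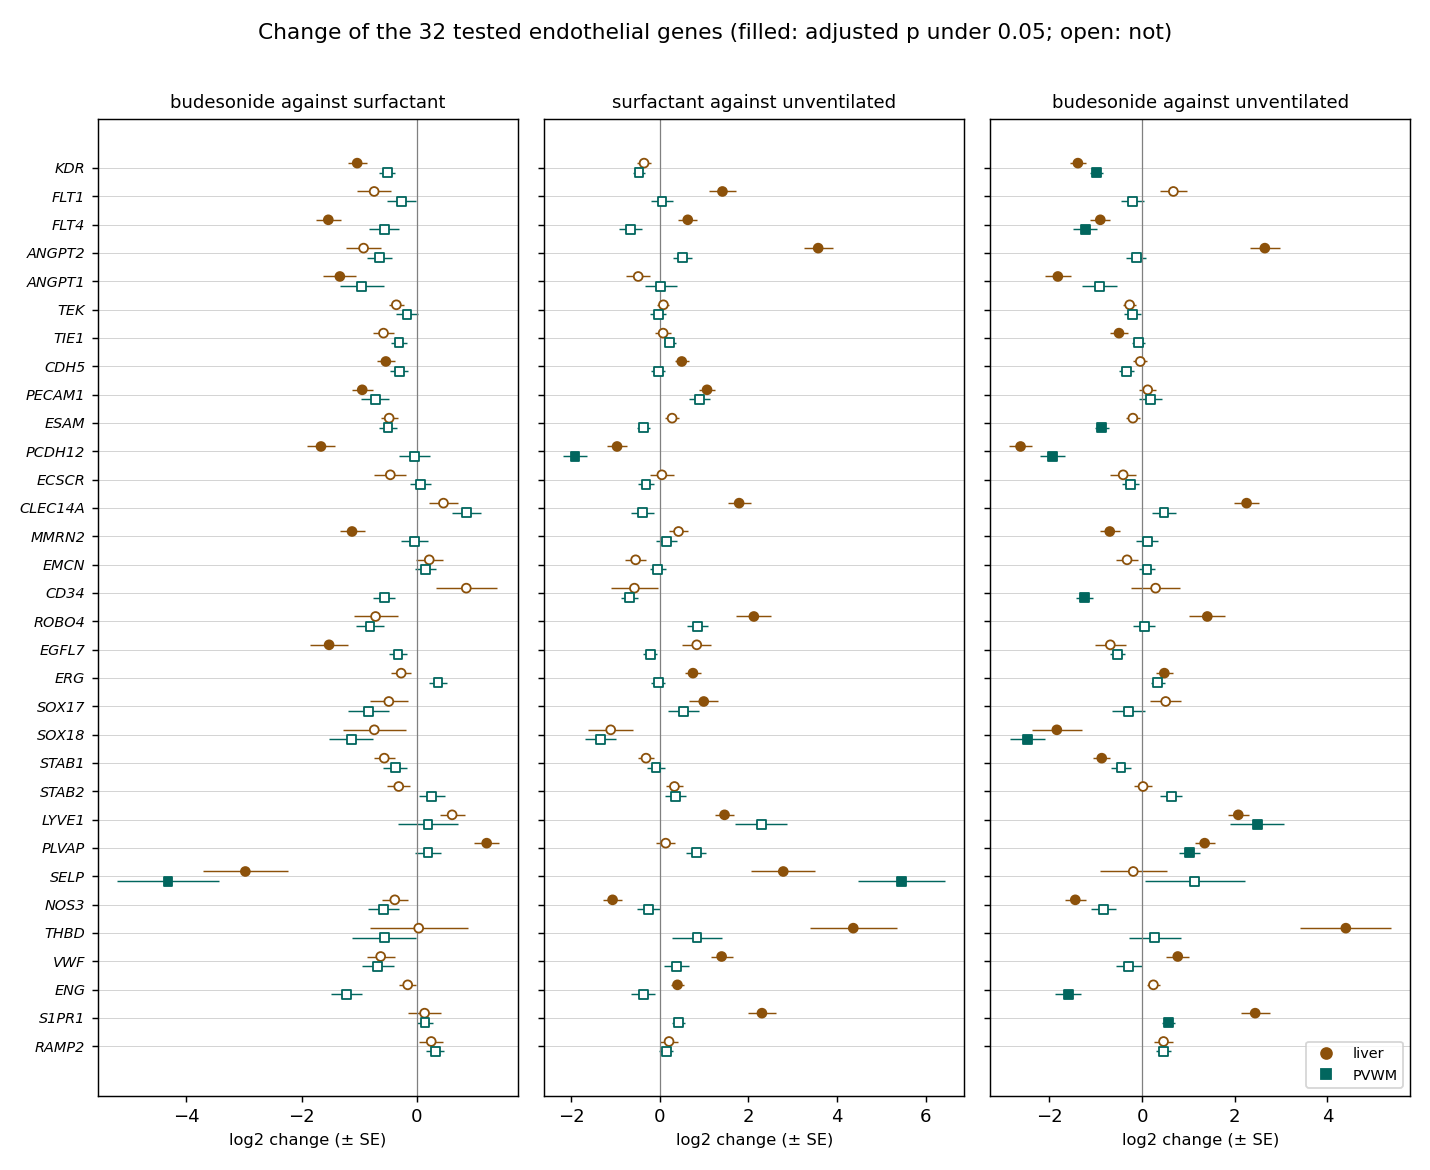
Log2 change ± SE of the 32 tested genes (rows, ordered by role) in 3 comparisons (panels), with liver as circles and PVWM as squares; filled symbols have an adjusted p under 0.05. With surfactant against no ventilation 15 liver genes lie to the right and filled, from ENG at 0.40 to THBD at 4.36, while in PVWM SELP (5.46) and PCDH12 (-1.91) are the filled symbols.

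Of the VEGF receptors in liver, KDR and FLT4 fell with budesonide against both other groups, and FLT1 and FLT4 rose with surfactant against unventilated. KDR, the main receptor for vessel growth, had 39.8, 36.8, 38.2 and 26.1 CPM in budesonide livers, 81.9, 72.6, 72.5 and 61.5 CPM in surfactant livers and 98.6, 76.3, 103 and 90.2 CPM in unventilated livers. All 4 budesonide values lay below every other library, and surfactant and unventilated values overlapped. KDR fell by 1.03 ± 0.16 on the log2 scale with budesonide against surfactant (adjusted p = 0.00299) and by 1.39 ± 0.16 against unventilated lambs (adjusted p = 4.15e-05), and the value with surfactant against unventilated was log2 -0.35 ± 0.16, adjusted p = 0.0959. FLT4 had 25.7, 12.2, 17.3 and 19.3 CPM with budesonide, 56.1, 55.3, 42.7 and 61.7 CPM with surfactant and 36.4, 27.9, 40.9 and 34.0 CPM without ventilation. The 3 groups did not overlap, with unventilated lambs in the middle. FLT4 was 2.90-fold lower with budesonide than with surfactant (log2 -1.53 ± 0.22, adjusted p = 0.00176) and 1.87-fold lower than in unventilated livers (log2 -0.90 ± 0.21, adjusted p = 0.00409). Its rise with surfactant (log2 0.63 ± 0.21, adjusted p = 0.0297) lost its call without animal 032, 051, 057, 058 or 060 (adjusted p up to 0.0837). FLT1, which also acts as a decoy for the ligand, stood at 20.4, 35.5, 32.4 and 19.3 CPM with budesonide, 27.7, 48.0, 73.7 and 30.1 CPM with surfactant and 16.7, 15.1, 17.4 and 18.2 CPM without ventilation. Every ventilated lamb exceeded every unventilated lamb, and animal 049 was highest. FLT1 rose with surfactant against unventilated (log2 1.41 ± 0.30, adjusted p = 0.00299), and the other 2 differences did not pass (budesonide against surfactant log2 -0.74 ± 0.30, adjusted p = 0.118; budesonide against unventilated log2 0.67 ± 0.30, adjusted p = 0.0801).

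Of the angiopoietin ligands, ANGPT2 rose in both ventilated groups of livers against unventilated ones, and ANGPT1 fell with budesonide. ANGPT2 had 16.4, 35.9, 28.6 and 17.6 CPM with budesonide, 39.9, 53.2, 65.0 and 28.7 CPM with surfactant and 4.14, 2.83, 3.76 and 4.96 CPM without ventilation. Every ventilated liver lay above every unventilated one, and the ventilated groups overlapped. ANGPT2 was 11.9-fold higher with surfactant (log2 3.57 ± 0.33, adjusted p = 1.47e-05) and 6.27-fold higher with budesonide (log2 2.65 ± 0.32, adjusted p = 4.87e-05) than without ventilation. Between budesonide and surfactant it did not pass (log2 -0.92 ± 0.30, adjusted p = 0.0608). ANGPT2 overlaps MCPH1 in the RefSeq annotation ARS-UI_Ramb_v3.0, and MCPH1 itself was at 15.3 ± 4.09 CPM with budesonide, 16.3 ± 3.83 CPM with surfactant and 15.2 ± 1.65 CPM without ventilation (SD, n = 4 each). The strand used in counting is not given in the sources used here, so reads of overlapping genes cannot be told apart. STAB1 and NOS3 also overlap annotated protein-coding genes, NT5DC2 and ATG9B, as do TEK (LOC101110567 and LOC121818663) and SOX17 (LOC121820308). Noncoding entries or a pseudogene overlap ANGPT1, CD34, ENG, NOS3, PLVAP, SELE and KDR. ANGPT1 had 0.640, 0.745, 0.989 and 1.35 CPM with budesonide, 3.002, 1.68, 2.50 and 2.21 CPM with surfactant and 3.71, 2.97, 2.999 and 3.48 CPM without ventilation. Budesonide livers lay below all others. ANGPT1 fell with budesonide against surfactant (log2 -1.33 ± 0.28, adjusted p = 0.0118) and against unventilated (log2 -1.82 ± 0.28, adjusted p = 0.000261), and surfactant against unventilated gave log2 -0.48 ± 0.26, adjusted p = 0.159. The receptor TEK had 36.4 to 42.9 CPM in budesonide, 43.5 to 57.1 CPM in surfactant and 41.8 to 54.0 CPM in unventilated livers, so that budesonide livers lay below surfactant livers, and was called in no liver comparison (budesonide against surfactant log2 -0.35 ± 0.13, adjusted p = 0.102). Its relative TIE1 fell with budesonide against unventilated (log2 -0.50 ± 0.18, adjusted p = 0.0409), a call lost without any of animals 031, 048, 050, 054, 057 and 059 (adjusted p up to 0.125).

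Because both ligands bind TEK, their ratio was taken within each library as log2 of ANGPT2 over ANGPT1 counts, with 0.5 added to each. It is not corrected for transcript length, so only its change between groups is read. In liver the log2 ratio averaged 4.66 ± 0.77 with budesonide, 4.26 ± 0.66 with surfactant and 0.23 ± 0.24 without ventilation (SD, n = 4 each). All 8 ventilated livers, between 3.67 and 5.54, lay above the 4 unventilated livers, between -0.07 and 0.51. The differences from unventilated lambs were 4.43 with budesonide and 4.03 with surfactant, each with an exact two-sided permutation p of 0.0286, which is the smallest that 4 against 4 animals allow (0.0857 after adjustment over 6 tests). The difference between budesonide and surfactant was 0.40 (exact permutation p = 0.571). In PVWM the log2 ratio averaged 0.01 ± 0.46 with budesonide, -0.14 ± 0.69 with surfactant and -0.56 ± 0.78 without ventilation, and the 3 groups overlapped (exact permutation p from 0.314 to 0.771 over the 3 differences).

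**Figure D2:**
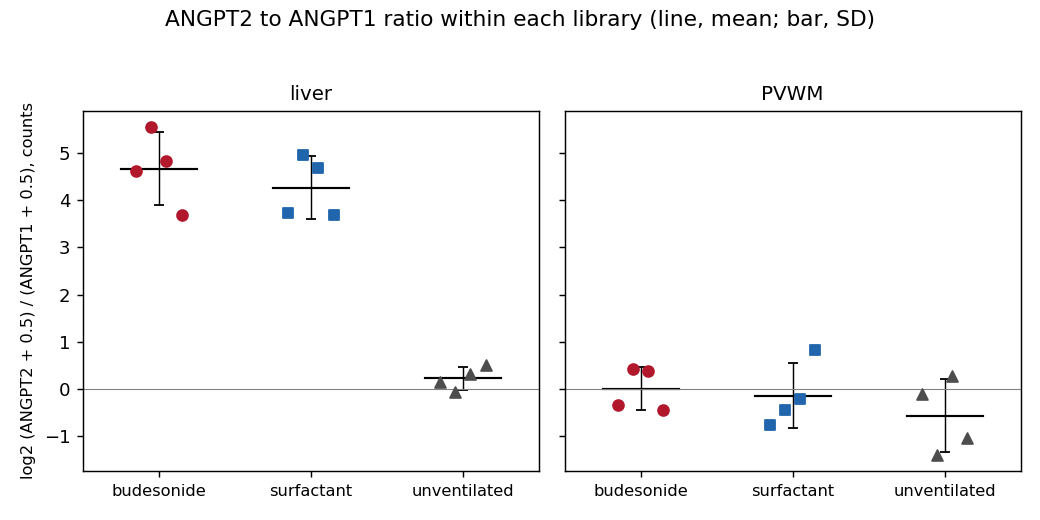
Log2 ratio of ANGPT2 to ANGPT1 counts (y axis) in each library of liver (left) and PVWM (right), with budesonide as circles, surfactant as squares and unventilated as triangles; lines are means and bars SD over 4 lambs. The 8 ventilated livers lie between 3.67 and 5.54 and the unventilated livers between -0.07 and 0.51, while the PVWM groups overlap.

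Among junction and surface proteins, PCDH12 fell in all 3 liver comparisons. PCDH12, a protocadherin of endothelial contacts, had 4.02, 2.81, 3.32 and 4.31 CPM with budesonide, 13.8, 14.5, 6.55 and 10.9 CPM with surfactant and 21.8, 20.8, 23.8 and 22.7 CPM without ventilation. The 3 groups were fully separate, in that order. PCDH12 fell by 1.66 ± 0.24 with budesonide against surfactant (adjusted p = 0.00179), by 2.62 ± 0.24 with budesonide against unventilated (adjusted p = 9.59e-06) and by 0.96 ± 0.23 with surfactant against unventilated (adjusted p = 0.00515), all on the log2 scale. PECAM1, an adhesion molecule that leukocytes use to cross the vessel wall, had 44.8, 43.0, 50.2 and 54.7 CPM with budesonide, 68.6, 79.6, 106 and 117 CPM with surfactant and 47.6, 36.8, 49.8 and 43.0 CPM without ventilation. Only surfactant livers stood apart, above both other groups. PECAM1 rose with surfactant against unventilated (log2 1.07 ± 0.18, adjusted p = 0.000756), fell with budesonide against surfactant (log2 -0.95 ± 0.18, adjusted p = 0.00743) and differed by 0.12 ± 0.18 between budesonide and unventilated (adjusted p = 0.605). PECAM1 overlaps MILR1 in that annotation. MILR1, at 1.32 ± 0.0813, 2.98 ± 0.983 and 1.67 ± 0.434 CPM in budesonide, surfactant and unventilated livers, was called in the same direction as PECAM1 in the comparisons of surfactant with unventilated and of budesonide with surfactant. CDH5, the cadherin of endothelial junctions, also had its top values in surfactant livers, at 87.4 to 115 CPM with budesonide, 114 to 179.6 CPM with surfactant and 94.3 to 109 CPM without ventilation. It rose with surfactant against unventilated (log2 0.50 ± 0.15, adjusted p = 0.0203) and fell with budesonide against surfactant (log2 -0.54 ± 0.15, adjusted p = 0.0396). The rise was lost without animal 049, 058 or 060 (adjusted p up to 0.0773), and the fall without any of animals 031, 032, 048, 049, 050, 057, 058 and 060 (adjusted p up to 0.116).

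CLEC14A, a lectin of sprouting vessels, had 34.8, 75.4, 45.0 and 46.4 CPM with budesonide, 37.1, 38.3, 47.5 and 23.3 CPM with surfactant and 11.6, 9.95, 11.9 and 8.89 CPM without ventilation. Ventilated groups overlapped each other and lay above every unventilated liver. CLEC14A rose with surfactant (log2 1.79 ± 0.26, adjusted p = 0.000276) and with budesonide (log2 2.25 ± 0.26, adjusted p = 3.65e-05) against unventilated lambs. MMRN2, a matrix protein that binds CLEC14A, had 25.9, 33.0, 18.6 and 21.2 CPM with budesonide, 49.5, 46.8, 76.2 and 42.2 CPM with surfactant and 42.9, 34.2, 43.2 and 39.8 CPM without ventilation. Budesonide livers were below every other liver. MMRN2 fell with budesonide against surfactant (log2 -1.12 ± 0.22, adjusted p = 0.00821) and against unventilated (log2 -0.70 ± 0.22, adjusted p = 0.0182), the second call being lost without animal 050 or 054 (adjusted p up to 0.0546). ROBO4, a receptor that stabilizes vessels, had 19.9, 37.1, 18.2 and 37.6 CPM with budesonide, 18.9, 32.6, 83.5 and 50.1 CPM with surfactant and 9.54, 10.1, 10.8 and 12.1 CPM without ventilation. Both ventilated groups exceeded all unventilated values, and surfactant animal 049 was the highest. ROBO4 rose with surfactant (log2 2.12 ± 0.40, adjusted p = 0.00142) and with budesonide (log2 1.41 ± 0.39, adjusted p = 0.0104) against unventilated lambs. EGFL7, a secreted factor that guides vessel tubes, had 3.78, 6.94, 7.16 and 5.53 CPM with budesonide, 7.73, 20.3, 27.3 and 11.9 CPM with surfactant and 9.83, 8.95, 8.82 and 10.1 CPM without ventilation. Budesonide livers were all lower, and surfactant livers spread widely. EGFL7 fell with budesonide against surfactant (log2 -1.52 ± 0.34, adjusted p = 0.0142), and its other 2 liver differences did not pass (0.83 ± 0.33 with surfactant and -0.69 ± 0.33 with budesonide, both against unventilated).

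Among transcription factors in liver, ERG and SOX17 rose with surfactant, and SOX18 fell with budesonide, both against unventilated. ERG, an ETS factor that maintains endothelial identity, was at 14.8 to 16.9 CPM with budesonide, 16.2 to 24.99 CPM with surfactant and 9.27 to 14.8 CPM without ventilation. It rose with surfactant (log2 0.75 ± 0.18, adjusted p = 0.00552) and with budesonide (log2 0.48 ± 0.18, adjusted p = 0.0419) against unventilated, the second call being lost without any of 9 animals (031, 032, 048, 050, 051, 054, 057, 058 and 060; adjusted p up to 0.115). SOX17, an arterial factor, rose with surfactant against unventilated (log2 0.99 ± 0.33, adjusted p = 0.0295), which was lost without animal 049, 058 or 060 (adjusted p up to 0.124). SOX18, a factor of lymphatic specification, was at 0.465 to 1.63 CPM with budesonide, 0.444 to 2.56 CPM with surfactant and 2.24 to 3.94 CPM without ventilation. SOX18 fell with budesonide against unventilated (log2 -1.84 ± 0.53, adjusted p = 0.0131). TCEA2, which overlaps SOX18, was called in no comparison within a tissue.

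The genes of the sinusoidal wall split. LYVE1 had 302, 422, 493 and 424 CPM with budesonide, 256, 188, 309.6 and 319 CPM with surfactant and 73.9, 98.7, 126 and 90.7 CPM without ventilation, so that all ventilated livers exceeded all unventilated ones. LYVE1 was 4.21-fold higher with budesonide (log2 2.08 ± 0.22, adjusted p = 2.36e-05) and 2.75-fold higher with surfactant (log2 1.46 ± 0.22, adjusted p = 0.000372) than without ventilation. STAB1, a scavenger receptor related to STAB2, had 20.9, 15.8, 13.7 and 15.1 CPM with budesonide, 30.3, 22.3, 18.9 and 25.2 CPM with surfactant and 29.6, 26.7, 28.05 and 35.5 CPM without ventilation. STAB1 fell with budesonide against unventilated (log2 -0.87 ± 0.18, adjusted p = 0.00196), with budesonide livers below every unventilated one. STAB2 was at 134 to 185 CPM with budesonide, 153 to 267 CPM with surfactant and 131 to 207 CPM without ventilation and was not called. PLVAP had 140.3, 193, 152 and 159 CPM with budesonide, 95.1, 77.0, 62.3 and 43.3 CPM with surfactant and 75.2, 59.2, 64.2 and 54.2 CPM without ventilation. The 4 budesonide livers stood above the other 8. PLVAP was 2.32-fold higher with budesonide than with surfactant (log2 1.21 ± 0.22, adjusted p = 0.00560) and 2.55-fold higher than without ventilation (log2 1.35 ± 0.22, adjusted p = 0.000331), and surfactant against unventilated gave log2 0.13 ± 0.21, adjusted p = 0.642. The 10 measured of 12 listed sinusoidal markers, STAB1, STAB2 and LYVE1 among them, summed to 754 to 929 CPM with budesonide, 786 to 972 CPM with surfactant and 498 to 786 CPM without ventilation. The mean sums were 854, 885 and 593 CPM in these groups, of which LYVE1 made up 410, 268 and 97.4 CPM. Of the 10, 0 rose and 3 fell with budesonide against surfactant (median log2 -0.55), 3 rose and 1 fell with surfactant against unventilated (median 0.25), and 1 rose and 3 fell with budesonide against unventilated (median -0.06).

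Genes of leukocyte adhesion and of clotting varied widely between lambs of one group. SELP, P-selectin, which endothelium and platelets store and expose on activation, had 2.97, 3.04, 1.34 and 3.28 CPM with budesonide, 2.22, 5.28, 32.3 and 43.7 CPM with surfactant and 3.76, 2.88, 2.29 and 3.17 CPM without ventilation. Animals 049 and 051 held the high surfactant values, while animal 007 lay inside the budesonide range and below the unventilated one, and animal 032 lay above both ranges. SELP rose with surfactant against unventilated (log2 2.78 ± 0.72, adjusted p = 0.00892) and fell with budesonide against surfactant (log2 -2.98 ± 0.73, adjusted p = 0.0226), the fall being lost without animal 031, 048, 049 or 050 (adjusted p up to 0.0607). Without animal 051 the log2 values were 2.12 for the rise and -2.36 for the fall. SELE, E-selectin, was near 0 throughout: the highest livers were surfactant animals 049 and 051 at 0.777 and 0.566 CPM, and every other liver had at most 0.06 CPM. THBD, thrombomodulin, which turns thrombin into an activator of the anticoagulant protein C, had 79.8, 443, 60.1 and 539.9 CPM with budesonide, 18.3, 129.5, 232 and 716 CPM with surfactant and 12.8, 16.3, 12.8 and 11.4 CPM without ventilation. The lowest ventilated liver, surfactant animal 007, was above the highest unventilated one, and both ventilated groups were widely spread. THBD rose with budesonide (log2 4.40 ± 0.98, adjusted p = 0.00300) and with surfactant (log2 4.36 ± 0.98, adjusted p = 0.00409) against unventilated, and budesonide against surfactant gave log2 0.03 ± 0.85, adjusted p = 0.983. Without surfactant animal 051, which had 716 CPM, the rise with surfactant was 3.24 on the log2 scale. VWF, the platelet-tethering protein stored beside SELP, had 23.5, 47.2, 31.5 and 40.4 CPM with budesonide, 42.9, 43.0, 76.1 and 58.1 CPM with surfactant and 24.3, 19.0, 24.05 and 16.3 CPM without ventilation. Surfactant livers lay above all unventilated ones, and budesonide livers overlapped both groups. VWF rose with surfactant (log2 1.39 ± 0.25, adjusted p = 0.00104) and with budesonide (log2 0.77 ± 0.25, adjusted p = 0.0217) against unventilated, the second call being lost without animal 048, 054, 058 or 060 (adjusted p up to 0.0755).

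Platelets also carry SELP and VWF. The 6 measured of 7 listed platelet genes summed to 757 to 1134 CPM in budesonide, 397 to 652 CPM in surfactant and 91.3 to 120.1 CPM in unventilated livers. GP1BA made up most of that sum, at 705 to 1093, 366 to 606 and 57.0 to 82.5 CPM in these groups, whereas PF4 lay at 12.9 to 20.4, 9.28 to 20.2 and 7.41 to 21.9 CPM and ITGA2B at 13.8 to 21.5, 16.9 to 24.6 and 15.4 to 20.04 CPM, with overlap of the 3 groups. The 6 measured of 7 listed neutrophil genes summed to 78.7 to 128 CPM with budesonide, 91.7 to 269 CPM with surfactant and 26.2 to 86.5 CPM without ventilation. The part of either cell type in the values of SELP, THBD and VWF was not tested.

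NOS3, which makes the vasodilator nitric oxide in endothelium, was one of the 2 genes that fell with surfactant in liver. It had 4.31, 4.93, 3.84 and 2.51 CPM with budesonide, 6.34, 5.22, 4.61 and 4.17 CPM with surfactant and 11.9, 10.7, 10.3 and 9.56 CPM without ventilation. Every ventilated liver was below every unventilated one, and the ventilated groups overlapped. NOS3 fell by 1.44 ± 0.22 with budesonide (adjusted p = 0.000233) and by 1.06 ± 0.22 with surfactant (adjusted p = 0.00234) against unventilated, on the log2 scale. S1PR1 had 55.4, 79.2, 68.5 and 78.0 CPM with budesonide, 36.4, 42.0, 106 and 71.4 CPM with surfactant and 14.8, 9.54, 12.6 and 14.9 CPM without ventilation. Both ventilated groups lay above all unventilated livers and overlapped each other. S1PR1 was 5.43-fold higher with budesonide (log2 2.44 ± 0.31, adjusted p = 7.00e-05) and 4.94-fold higher with surfactant (log2 2.30 ± 0.31, adjusted p = 0.000183) than without ventilation. ENG, a co-receptor for BMP9 and BMP10, was at 87.9 to 135 CPM with budesonide, 118 to 145 CPM with surfactant and 90.5 to 108 CPM without ventilation. Its rise with surfactant (log2 0.40 ± 0.15, adjusted p = 0.0452) was lost without any of 10 animals (adjusted p up to 0.153) and kept without animal 050 or 054. The stem cell and endothelial antigen CD34, the surface proteins ECSCR and EMCN, the junction protein ESAM, the adrenomedullin co-receptor RAMP2, STAB2 and TEK were called in no liver comparison, with log2 changes from -0.57 to 0.86, both of CD34.

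**Figure D3:**
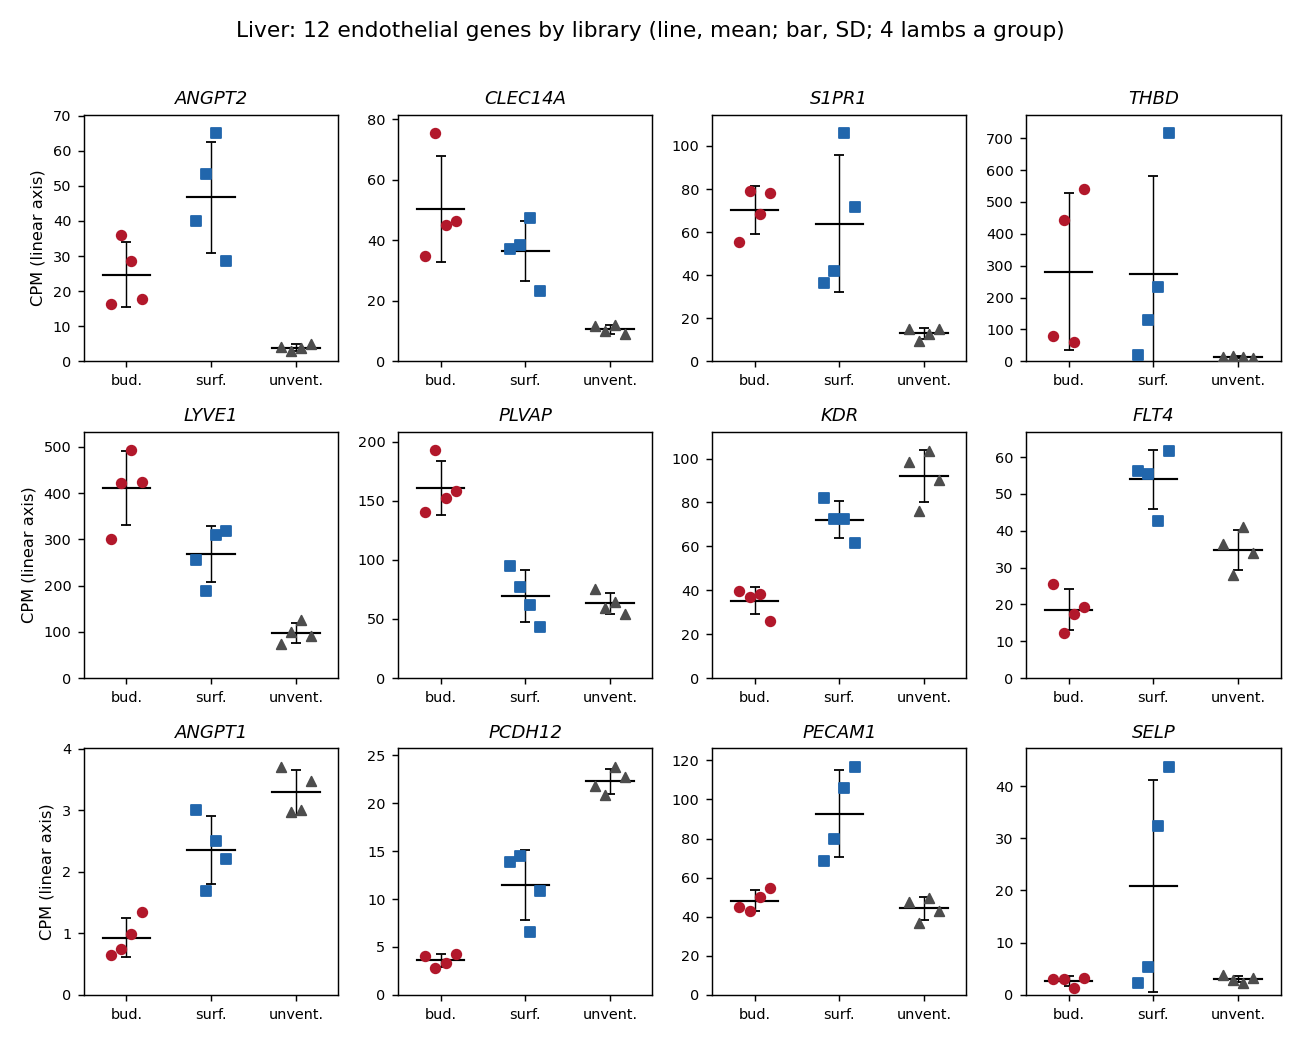
CPM (linear axis from 0) of 12 endothelial genes in each liver library, with budesonide as circles, surfactant as squares and unventilated as triangles; lines are means and bars SD over 4 lambs, cut at 0. KDR, ANGPT1, PCDH12 and FLT4 are lowest in the 4 budesonide livers, PLVAP is highest there, and PECAM1 and SELP reach their top values (117 and 43.7 CPM) in surfactant livers.

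Other genes of the same pathways, taken from 8 lists compiled with earlier results of these data known, gave context in liver. Their counts stand against the shares of all genes called there: 21.6% higher and 19.5% lower with surfactant against unventilated, 4.01% and 7.85% with budesonide against surfactant, and 23.3% and 23.7% with budesonide against unventilated. Of 7 VEGF ligands and co-receptors, 1 rose and 1 fell with surfactant against unventilated, and 3 fell with budesonide against surfactant: the co-receptor NRP2 (log2 -1.38 ± 0.17, adjusted p = 0.00104), VEGFC, the ligand of FLT4 (log2 -1.21 ± 0.24, adjusted p = 0.00949), and VEGFA, the ligand of KDR (log2 -0.91 ± 0.26, adjusted p = 0.0420). VEGFA was at 53.6 to 70.9 CPM with budesonide, 69.2 to 202 CPM with surfactant and 69.0 to 82.0 CPM without ventilation. Of 9 tested genes known to respond to VEGF or angiopoietins, 5 rose with surfactant against unventilated, RCAN1, a feedback inhibitor of calcineurin, the most clearly (log2 6.96 ± 0.56, adjusted p = 7.34e-06; 1494 to 6576 CPM with surfactant, 28.5 to 44.8 CPM without ventilation). With budesonide 1 of the 9, the phosphatase DUSP5, fell against surfactant (log2 -3.70 ± 0.94, adjusted p = 0.0257). Of 15 Notch and arterial genes, 7 rose and 3 fell with surfactant against unventilated, and with budesonide against surfactant 6 fell while NOTCH4, an endothelial Notch receptor (log2 1.55 ± 0.18, adjusted p = 0.000781), and HEY1, a Notch target (log2 2.55 ± 0.38, adjusted p = 0.00230), rose. NOTCH4 was at 45.4 to 61.7 CPM with budesonide, 14.1 to 23.2 CPM with surfactant and 12.1 to 15.5 CPM without ventilation, so budesonide livers lay above all others.

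Of 15 genes of vasoactive peptides and sphingosine 1-phosphate, 7 rose with surfactant against unventilated, among them S1PR3, a second receptor of that lipid (log2 3.35 ± 0.28, adjusted p = 8.01e-06), EDN1, the vasoconstrictor endothelin 1 (log2 4.57 ± 0.80, adjusted p = 0.000959), and the prostaglandin enzyme PTGS2 (log2 5.90 ± 1.19, adjusted p = 0.00221). With budesonide 6 of the 15 fell against surfactant, including the prostacyclin synthase PTGIS (log2 -1.11 ± 0.18, adjusted p = 0.00346), the natriuretic peptide receptor NPR3 (log2 -1.93 ± 0.33, adjusted p = 0.00481) and the apelin receptor APLNR (log2 -2.61 ± 0.51, adjusted p = 0.00853). Of 11 haemostasis genes of the vessel wall, 7 rose and 1 fell with surfactant against unventilated, with ADAMTS1, a matrix protease (log2 1.91 ± 0.29, adjusted p = 0.000348), and F8, clotting factor VIII (log2 2.65 ± 0.42, adjusted p = 0.000500), among those that rose. With budesonide against surfactant, 1 of the 11 rose and 4 fell, including the protein C receptor PROCR (log2 -3.30 ± 0.61, adjusted p = 0.00680) and tissue factor F3 (log2 -2.80 ± 0.72, adjusted p = 0.0270). Of 16 further surface and junction genes 7 rose and 2 fell with surfactant against unventilated, led by the junction protein JAM3 (log2 2.55 ± 0.19, adjusted p = 5.50e-06) and, downward, PALMD (log2 -4.21 ± 0.47, adjusted p = 5.18e-05). Of 17 endothelial transcription factors 8 rose and 3 fell, with ETS2, FOXO1 and KLF4 rising (2.00, 1.91 and 2.85 on the log2 scale; adjusted p = 6.01e-06, 0.000119 and 0.000379), and of 15 BMP and TGF-beta genes 6 rose and 4 fell, with SMAD1 (log2 2.04 ± 0.18, adjusted p = 1.04e-05) and BMP6 (log2 2.83 ± 0.35, adjusted p = 0.000114) rising. In budesonide against surfactant livers, 3 of the 17 factors fell and 0 rose, of the 15 BMP genes 3 fell and 1 rose, and of the 16 surface genes 6 fell and 2 rose. With budesonide against unventilated livers, 0 rose and 3 fell of the VEGF ligands and co-receptors, 2 rose and 0 fell of the VEGF and angiopoietin responsive genes, 3 rose and 4 fell of the Notch genes, 3 rose and 3 fell of the vasoactive genes, 5 rose and 2 fell of the haemostasis genes, 2 rose and 6 fell of the surface genes, 4 rose and 3 fell of the transcription factors, and 5 rose and 3 fell of the BMP genes.

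In PVWM fewer of the genes changed, and most of the calls lay between budesonide and unventilated lambs. In that comparison 3 of the 32 rose (LYVE1, PLVAP and S1PR1) and 7 fell (KDR, FLT4, ENG, CD34, ESAM, PCDH12 and SOX18), where 4.35% of all 18616 genes tested were called higher and 3.71% lower. The median log2 change of the 32 was -0.21 and that over all genes 0.01. With surfactant against unventilated SELP rose and PCDH12 fell, at shares of 1.35% and 0.698% over all genes, and with budesonide against surfactant SELP fell, at 0.591% higher and 0.387% lower over all genes. DESeq2 called 8 of the 32 with surfactant against unventilated and 5 with budesonide against surfactant. Over all 25101 genes it called 822 and 548, where the main fit called 382 and 182 of 18616. With gestational age in the model, none of the 32 was called in either comparison, where 15 and 145 of all genes were. With sex in the model none of the 32 was called in them, where 8 and 49 of all genes were. The medians of the 32 were 0.00 and -0.35 in these 2 comparisons, against 0.02 and -0.01 over all genes. With gestational age in the model 4 of the 10 calls between budesonide and unventilated were left (ENG, ESAM, PCDH12 and SOX18), where calls over all genes went from 1501 to 346. With sex in the model 1 was left (CD34), where 158 of all genes were called. The sex fit dropped animal 061, which has no sex label, and animal 060, labelled in PVWM but not in liver. Its unventilated lambs were 057 and 058, both male, so an effect of sex and of the dropped lambs cannot be told apart.

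PCDH12 in PVWM had 4.41, 9.10, 4.39 and 5.91 CPM with budesonide, 9.40, 5.57, 4.65 and 4.68 CPM with surfactant and 25.3, 25.2, 22.5 and 18.5 CPM without ventilation. Every ventilated lamb was below every unventilated one, and the ventilated groups overlapped. PCDH12 was 3.84-fold lower with budesonide (log2 -1.94 ± 0.27, adjusted p = 0.000617) and 3.75-fold lower with surfactant (log2 -1.91 ± 0.27, adjusted p = 0.00295) than without ventilation, and budesonide against surfactant gave log2 -0.03 ± 0.27, adjusted p = 0.985. KDR had 40.4, 38.0, 31.8 and 37.0 CPM with budesonide, 53.9, 54.9, 64.1 and 37.3 CPM with surfactant and 66.5, 74.7, 76.3 and 72.5 CPM without ventilation. Both ventilated groups lay below every unventilated lamb, and surfactant animal 051 lay inside the budesonide range. KDR fell with budesonide against unventilated (log2 -0.98 ± 0.14, adjusted p = 0.000717), and the steps on either side of surfactant did not pass (-0.51 ± 0.14 for budesonide against surfactant and -0.47 ± 0.14 for surfactant against unventilated; adjusted p = 0.112 and 0.111). FLT4, near 2.16 ± 0.771 CPM with budesonide and 5.06 ± 0.818 CPM without ventilation (SD, n = 4 each), also fell (log2 -1.23 ± 0.26, adjusted p = 0.0111).

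ENG had 17.2, 21.8, 15.7 and 18.5 CPM with budesonide, 34.7, 38.9, 74.9 and 23.0 CPM with surfactant and 61.2, 55.8, 52.1 and 52.6 CPM without ventilation. Budesonide lambs were below all others, and surfactant animal 049 was the highest of the 12. ENG was 3.03-fold lower with budesonide than without ventilation (log2 -1.60 ± 0.27, adjusted p = 0.00270), and budesonide against surfactant gave log2 -1.23 ± 0.27, adjusted p = 0.0539. CD34, a marker of capillary endothelium, had 15.6, 17.1, 17.7 and 25.7 CPM with budesonide, 37.9, 24.4, 29.0 and 21.3 CPM with surfactant and 47.1, 51.4, 41.0 and 40.8 CPM without ventilation. All ventilated lambs lay below all unventilated ones. CD34 fell with budesonide against unventilated (log2 -1.25 ± 0.19, adjusted p = 0.00121), and surfactant against unventilated gave log2 -0.68 ± 0.18, adjusted p = 0.0859. ESAM, a tight junction adhesion molecule, fell with budesonide against unventilated (log2 -0.87 ± 0.15, adjusted p = 0.00280), at 11.8 to 17.6 CPM with budesonide, 16.6 to 22.7 CPM with surfactant and 21.5 to 29.9 CPM without ventilation. SOX18 had 1.10, 1.22, 0.924 and 1.07 CPM with budesonide, 3.46, 1.78, 3.50 and 0.811 CPM with surfactant and 6.504, 7.90, 4.76 and 4.89 CPM without ventilation. Ventilated lambs all lay below unventilated lambs, and surfactant values overlapped the budesonide range. SOX18 was 5.54-fold lower with budesonide than without ventilation (log2 -2.47 ± 0.38, adjusted p = 0.00143), and surfactant against unventilated gave log2 -1.33 ± 0.36, adjusted p = 0.0805.

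LYVE1, which in brain marks macrophages and lymphatic vessels of the border tissues more than parenchymal capillaries, had 7.55, 7.24, 8.08 and 4.21 CPM with budesonide, 3.03, 2.20, 15.8 and 2.75 CPM with surfactant and 1.35, 1.41, 0.940 and 1.11 CPM without ventilation. All ventilated lambs exceeded all unventilated ones, and animal 049 was the highest. LYVE1 rose with budesonide against unventilated (log2 2.49 ± 0.58, adjusted p = 0.0190), a call lost without animal 060 or 061 (adjusted p up to 0.0686). PLVAP had 11.7, 10.7, 9.64 and 14.2 CPM with budesonide, 11.95, 6.86, 12.7 and 8.80 CPM with surfactant and 7.12, 6.42, 5.39 and 3.84 CPM without ventilation. Budesonide lambs were above all unventilated lambs, and surfactant lambs overlapped both groups. PLVAP was 2.03-fold higher with budesonide than without ventilation (log2 1.02 ± 0.23, adjusted p = 0.0147), a call lost without animal 054 (adjusted p = 0.0516). S1PR1 had 195, 192, 192 and 193 CPM with budesonide, 156, 129.5, 236 and 178 CPM with surfactant and 118, 135, 122 and 147 CPM without ventilation. The budesonide values lay close together and above every unventilated value, and surfactant values overlapped both groups. S1PR1 rose with budesonide against unventilated (log2 0.57 ± 0.15, adjusted p = 0.0304), which was lost without any of animals 031, 048, 050, 054, 057, 058 and 060 (adjusted p up to 0.0837).

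SELP in PVWM had 1.51, 0.869, 0.866 and 1.19 CPM with budesonide, 1.64, 5.21, 64.0 and 18.3 CPM with surfactant and 0.552, 0.321, 0.439 and 0.681 CPM without ventilation. All surfactant lambs exceeded every lamb of both other groups, by little in animal 007 and by most in animal 049. SELP rose with surfactant against unventilated (log2 5.46 ± 0.98, adjusted p = 0.0129) and fell with budesonide against surfactant (log2 -4.32 ± 0.89, adjusted p = 0.0382). The rise was lost without animal 060 (adjusted p = 0.0694), and the fall without any of animals 031, 048, 049, 050, 051, 054, 057, 058, 060 and 061 (adjusted p up to 0.124). Without animal 049 the log2 values were 4.04 for the rise and -2.91 for the fall. The 6 measured platelet genes summed to 7.70 to 12.02 CPM with budesonide, 8.94 to 12.2 CPM with surfactant and 8.47 to 10.8 CPM without ventilation in PVWM, and SELE was at most 0.539 CPM, in surfactant animal 049.

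The other 21 tested genes were called in no PVWM comparison, with log2 changes from -0.95 (ANGPT1, budesonide against surfactant) to 0.90 (PECAM1, surfactant against unventilated): ANGPT1, ANGPT2, CDH5, CLEC14A, ECSCR, EGFL7, EMCN, ERG, FLT1, MMRN2, NOS3, PECAM1, RAMP2, ROBO4, SOX17, STAB1, STAB2, TEK, THBD, TIE1 and VWF. For THBD, VWF, FLT1 and MMRN2 1 surfactant lamb, animal 049, lay far above the others. THBD had 14.98, 18.3, 91.3 and 18.7 CPM and VWF had 44.8, 45.6, 112 and 38.6 CPM over the 4 surfactant lambs, and animal 049 had 99.4 CPM of FLT1 and 57.2 CPM of MMRN2. Over the 32 genes, the median log2 distance of animal 049 from the mean of the unventilated lambs was 0.41, while those of the other 7 ventilated lambs lay between -0.33 and -0.05. The same animal had the highest liver values of SOX17, FLT1, ROBO4, ANGPT2 and S1PR1.

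**Figure D4:**
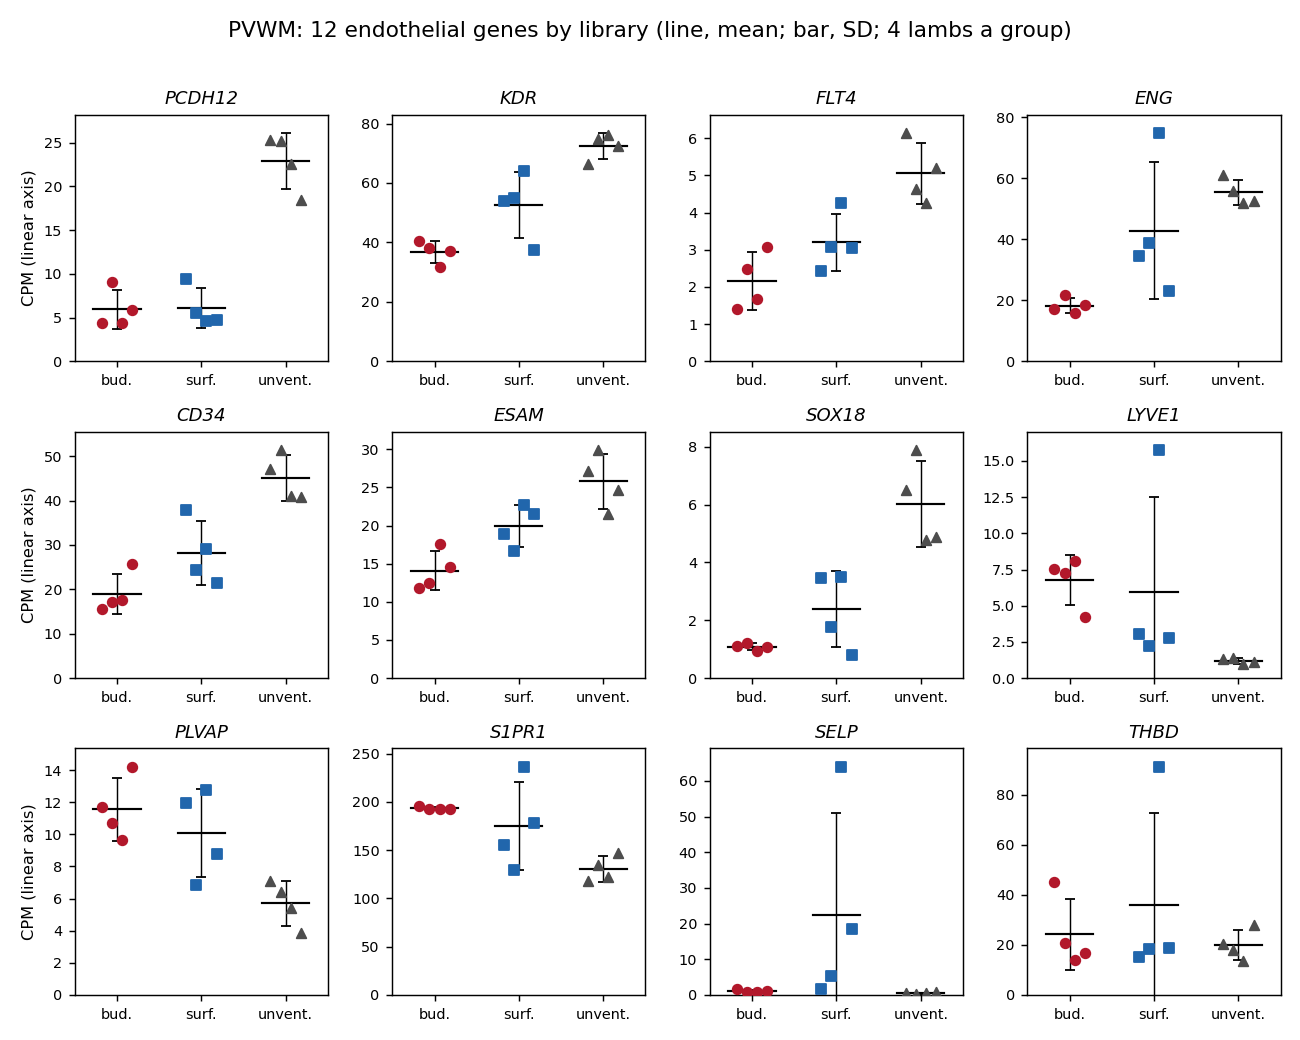
CPM (linear axis from 0) of 12 endothelial genes in each PVWM library, with budesonide as circles, surfactant as squares and unventilated as triangles; lines are means and bars SD over 4 lambs, cut at 0. PCDH12, KDR, CD34 and SOX18 are highest without ventilation, and 1 surfactant lamb, animal 049, holds the top values of ENG, LYVE1, SELP (64.0 CPM) and THBD (91.3 CPM).

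Markers of other cells in PVWM are given beside these results. The 6 measured of 8 listed genes of brain endothelium, which do not include the 32, summed to 296 to 391 CPM with budesonide, 388 to 703 CPM with surfactant, where animal 049 was the highest, and 324 to 366 CPM without ventilation. The tight junction gene CLDN5 was at 9.23 to 15.4, 7.04 to 17.5 and 8.84 to 13.7 CPM in these groups. The 9 mural cell genes summed to 328 to 412, 315 to 577 and 330.0 to 428 CPM. The sum of 4 microglia genes was lower with budesonide, at 29.9 to 44.8 CPM, against 79.8 to 127 CPM with surfactant and 122 to 134 CPM without ventilation. Single microglia genes were split: 3 were called lower and 1 higher with budesonide against unventilated. Against surfactant 3 were called lower and 0 higher. The 4 astrocyte genes summed to 4494 to 5475, 4988 to 5747 and 3495 to 4242 CPM in budesonide, surfactant and unventilated lambs. Of the 4, 1 was called higher and 1 lower with budesonide against unventilated, and 1 higher with surfactant against unventilated. The part of any of these cells in the endothelial values, that of S1PR1 among them, was not tested.

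In the companion lists, PVWM counts of budesonide against unventilated lambs are given first, where 4.35% of all genes were called higher and 3.71% lower. As in liver, these genes were read in the main fits alone. Of 16 Notch and arterial genes 1 rose and 3 fell, with NOTCH1 lower (log2 -1.56 ± 0.12, adjusted p = 6.46e-06) and NOTCH4 higher (log2 0.82 ± 0.10, adjusted p = 0.000303), and NOTCH4 also rose against surfactant (log2 0.64 ± 0.10, adjusted p = 0.0123) as it did in liver. NOTCH1 was at 21.5 to 24.8 CPM with budesonide, 31.6 to 48.2 CPM with surfactant and 67.0 to 73.3 CPM without ventilation, with no overlap of the 3 groups. Of 15 vasoactive and sphingosine 1-phosphate genes 1 rose and 6 fell, S1PR2 (log2 -1.01 ± 0.16, adjusted p = 0.00185) and PTGIS (log2 -0.99 ± 0.16, adjusted p = 0.00192) among them. Of 16 surface and junction genes 3 rose and 4 fell, including CD93, a CLEC14A relative (log2 -1.36 ± 0.20, adjusted p = 0.000973), and JAM3 (log2 0.74 ± 0.12, adjusted p = 0.00250). Of 10 VEGF and angiopoietin responsive genes 1 rose and 4 fell, and of 7 VEGF ligands and co-receptors none was called in any PVWM comparison. Of 17 transcription factors 4 fell, with LMO2 (log2 -1.14 ± 0.10, adjusted p = 1.35e-05) and FLI1 (log2 -0.61 ± 0.10, adjusted p = 0.00271) first. PLAU, the urokinase gene, was the haemostasis gene that fell (log2 -1.91 ± 0.15, adjusted p = 1.05e-05), at 5.63 to 6.93 CPM with budesonide, 8.74 to 14.9 CPM with surfactant and 23.8 to 25.8 CPM without ventilation. Of 14 BMP and TGF-beta genes 1 rose and 2 fell, ID1, a BMP target, the most clearly (log2 -1.92 ± 0.22, adjusted p = 0.000155). With budesonide against surfactant 3 of the 11 haemostasis genes fell, and with surfactant against unventilated 2 of them rose and 1 fell, where 1.35% of all genes were higher and 0.698% lower. With surfactant against unventilated ICAM1, a leukocyte adhesion molecule, rose (log2 3.56 ± 0.71, adjusted p = 0.0218), as did ADM, the vasodilator adrenomedullin (log2 2.69 ± 0.59, adjusted p = 0.0345). ICAM1 ranged from 4.96 to 75.0 CPM over the surfactant lambs, against 2.05 to 3.90 CPM without ventilation.

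The change with surfactant differed between the tissues for 14 of the 32 genes, in each case with the liver change above the PVWM change; over all 20010 genes tested 14.6% had such a difference upward and 11.2% downward. The genes were ANGPT2, THBD, CLEC14A, S1PR1, FLT1, FLT4, ROBO4, EGFL7, VWF, PCDH12, ERG, ENG, ESAM and CDH5. For ANGPT2 the liver change exceeded the PVWM change by 3.14 ± 0.40 (adjusted p = 9.66e-06), for CLEC14A by 2.26 ± 0.37 (adjusted p = 0.000150) and for S1PR1 by 1.96 ± 0.35 (adjusted p = 0.000315) on the log2 scale. PCDH12, which fell in both tissues, fell less in liver (difference 1.02 ± 0.36, adjusted p = 0.0382). Of the 14 calls, those of ANGPT2, CLEC14A, FLT1, FLT4 and S1PR1 were kept without any single animal, under both other scalings, without the filter, with DESeq2 and with the replicate block; age and sex were not entered in the models of both tissues. The THBD difference was 2.29 without animal 051 and 4.71 without animal 049. Those of CDH5, EGFL7, ENG, ERG, ESAM, PCDH12, ROBO4, THBD and VWF were each lost without at least 1 animal (adjusted p up to 0.153, for CDH5), and 8, 9, 7, 6, 8 and 8 genes were called without animal 032, 051, 057, 058, 059 and 060. With the animal as a replicate block, the calls of CDH5, EGFL7 and THBD were lost (12 genes called in all). With library totals as scaling 6 of the 32 were called upward and 2 downward, and the median over all genes moved by -0.35.

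With budesonide against unventilated, 8 of the 32 had a liver change above the PVWM change, and 0 had one below it. Over all genes the shares were 16.2% and 13.6%. The genes were ANGPT2, THBD, CLEC14A, ROBO4, VWF, ENG, S1PR1 and ESAM. Of these, ENG and ESAM were not called in liver and fell in PVWM. With library totals 5 were upward and 2 downward. For ENG the liver change lay above the PVWM change by 1.92 ± 0.32 (adjusted p = 0.000103). For THBD the difference was 4.19 ± 1.14 (adjusted p = 0.00771), with 3.53 without animal 054 and 4.99 without animal 031. The calls of ESAM (without animal 058, adjusted p = 0.0560), ROBO4 (without 048, 057 or 058, up to 0.0798) and VWF (without 048, 050, 054, 057, 058 or 060, up to 0.127) were each lost. With budesonide against surfactant, PCDH12 alone differed between the tissues (-1.62 ± 0.37, adjusted p = 0.0168), at 1.41% upward and 2% downward over all genes, and with the animal as a replicate block 2 genes were called. The call of PCDH12 was lost without animal 032 or 048 (adjusted p up to 0.0894). With the trimmed mean scaling, KDR, FLT4, LYVE1 and PLVAP gave no call for a difference between tissues with budesonide against unventilated, and KDR was called downward with library totals. Their liver minus PVWM values were -0.33 ± 0.21, 0.41 ± 0.32, -0.33 ± 0.60 and 0.41 ± 0.31.

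**Figure D5:**
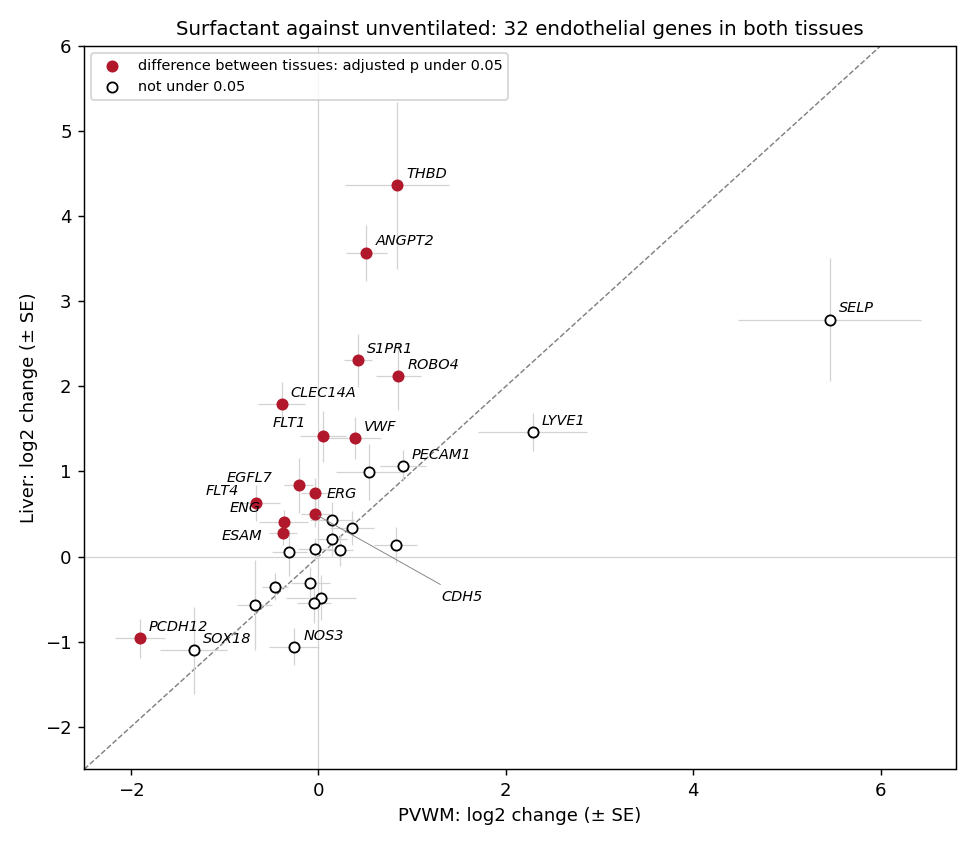
Log2 change ± SE with surfactant against unventilated in liver (y axis) and PVWM (x axis) of the 32 genes; filled points are the 14 whose changes differed between the tissues at an adjusted p under 0.05, and the dashed line marks equal change. The filled points all lie above the line, with THBD (4.36 in liver) and ANGPT2 (3.57) highest, and SELP lies farthest to the right, at 5.46 in PVWM.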

How the data were processed

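The authors deposited 1 table of raw read counts per gene for each tissue. Bowtie2, featureCounts and edgeR are named in the submitters' processing notes; their versions, the genome build, the annotation and the strand setting are not given in the sources used here. Total RNA was extracted with Trizol and sequenced after polyA selection as paired-end reads, per the labels' protocols. Groups came from the labels; every library of a tissue is a separate animal, and each table held 12 libraries, none identical.

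Counts were tested with edgeR 4.0.16 (R 4.3.3): filterByExpr, trimmed mean of M values, robust quasi-likelihood fits with the 3 groups of a tissue, and 1 fit of both tissues for differences between them. Benjamini-Hochberg adjustment ran over all genes tested, and SE is the log2 change over the square root of F. edgeR's common BCV, the spread between lambs of a group, came to 0.304 for liver libraries and 0.197 for PVWM libraries. The ANGPT2 to ANGPT1 ratio was compared by exact permutation in scipy 1.17.1. The fit was tested on simulated counts.

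The genes, companion lists, markers and tests were chosen with earlier results of these data known. Listed genes called in any comparison are given with values, the others by name and range, and of each companion list at most 3 called genes per tissue and comparison, by smallest adjusted p; 1 companion gene is not reported here, and overlapping genes were added after seeing the data. Alternatives were another scaling, no filter, DESeq2 1.42.0, 2 groups only, gestational age or sex as covariate, each animal left out, and the animal as a replicate block. Scaling by library totals was added after seeing the data. Calls of companion, marker and overlapping genes were read in the main fits alone. Liver and PVWM libraries of 11 animals come from the same lamb: residuals of such pairs correlated at 0.07 to 0.22. Sequences were not analysed here.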

Additional observations from a re-analysis of the deposited data

Results flagged for a closer look

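In 198 groups of 4 lambs (33 genes, 2 tissues, 3 groups), 15 held a lamb whose gap to its nearest neighbour exceeded the 95% critical value of Dixon's test; chance alone gives about 1 in 20. Of the 15, 6 were surfactant animal 049 in PVWM: FLT1 at 99.4 CPM, LYVE1 at 15.8 CPM, MMRN2 at 57.2 CPM, SELE at 0.539 CPM, THBD at 91.3 CPM and VWF at 112.3 CPM. The other 3 surfactant lambs lay at 37.7 to 47.2 CPM for FLT1, 14.98 to 18.7 CPM for THBD and 38.6 to 45.6 CPM for VWF. In liver the same animal stood apart for ECSCR, at 12.2 CPM, against 5.73 to 6.30 CPM in the other surfactant livers. Budesonide animals that stood apart were 031 in PVWM (EGFL7 at 16.4 CPM, S1PR1 at 195.4 CPM) and in liver (SELE at 0.0582 CPM), 054 in PVWM (FLT1 at 57.4 CPM) and in liver (ESAM at 20.3 CPM), and 050 in liver (SELP at 1.34 CPM). Unventilated animals were 058 (FLT1 at 61.7 CPM) and 061 (SELE at 0.0619 CPM), both in PVWM. The SELE values of animals 031 and 061 stand against 0 counts in the other lambs of their groups. The S1PR1 value of animal 031 lies close to the 192.3 to 192.8 CPM of the other budesonide lambs.

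Changes that differed between the tissues by a direct test are given as liver change minus PVWM change, on the log2 scale. With surfactant against unventilated they were 3.61 for THBD, 3.14 for ANGPT2, 2.26 for CLEC14A, 1.96 for S1PR1, 1.45 for FLT1, 1.38 for FLT4, 1.35 for ROBO4, 1.13 for EGFL7, 1.09 for VWF, 1.02 for PCDH12, 0.86 for ERG, 0.85 for ENG, 0.73 for ESAM and 0.61 for CDH5. With budesonide against unventilated they were 4.19 for THBD, 2.86 for ANGPT2, 1.95 for S1PR1, 1.92 for ENG, 1.86 for CLEC14A, 1.44 for ROBO4, 1.14 for VWF and 0.75 for ESAM. With budesonide against surfactant the value was -1.62 for PCDH12, which fell with budesonide in liver and gave -0.03 in PVWM.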

How the results depend on the processing

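Of the 105 calls of single genes over all comparisons, 49 were kept under every alternative run and 56 were lost under at least 1, 30 of them without some single animal. In liver 7 of 10, 6 of 17 and 10 of 18 were kept (budesonide with surfactant, surfactant with unventilated, budesonide with unventilated), and in PVWM 0 of 1, 0 of 2 and 0 of 10. Of the tissue differences 0 of 1, 5 of 14 and 5 of 8 were kept and of the levels 16 of 24, in fits where age and sex were not tried. With gestational age in the model, 6 genes were called with surfactant against unventilated and 10 with budesonide against unventilated in liver. In PVWM 0 were called with budesonide against surfactant, 0 with surfactant against unventilated and 4 with budesonide against unventilated. Over all genes these fits called 1398, 2958, 145, 15 and 346, in the same order. Age nearly coincides with ventilation. With sex in the model these PVWM counts were 0, 0 and 1. Fits of only the 2 groups compared gave 0 for budesonide against surfactant and 1 for surfactant against unventilated in PVWM, and no filter on low counts gave 0 for the first. Over all genes these fits called 69, 174 and 165, where the main fit called 182, 382 and 182. DESeq2 gave 5 and 8 for these 2 PVWM comparisons, and 5 for the tissue difference with budesonide against surfactant, where it called 548, 822 and 1319 of all genes. Leaving out 1 animal at a time gave 8 to 13, 13 to 18 and 14 to 19 genes in liver and 0 to 3, 1 to 6 and 8 to 12 in PVWM (in the same order of comparisons), 0 to 3, 6 to 13 and 6 to 10 for the tissue differences, and 22 to 24 for the tissue levels. Calls over all genes moved as well in these fits. They were 1007 to 2838, 5509 to 8109 and 6654 to 8517 in liver. In PVWM they were 66 to 207, 173 to 501 and 998 to 1657. For the tissue differences they were 282 to 1163, 3927 to 6230 and 4750 to 6451, and for the levels 14837 to 15884. In PVWM 2 genes were called with budesonide against surfactant without animal 007 and 3 without 051, and with surfactant against unventilated 4 without 007 and 6 without 032. With the animal as a replicate block, the tissue differences gave 2, 12 and 10 genes and the levels 21, where ANGPT1, ESAM and RAMP2 lost their call. Scaling by library totals called 8 tissue differences with surfactant, 6 of them among the 14, and turned 3 liver against PVWM levels to -0.14 (ESAM), -0.55 (ECSCR) and -0.20 (RAMP2); the cause was not tested. The ANGPT2 to ANGPT1 log2 difference stayed at 3.80 to 4.23 with surfactant and 4.14 to 4.76 with budesonide against unventilated livers without any 1 animal. SELP, SOX18 and SELE, among others, had low counts in some groups, which limits the precision of their values. ANGPT1, the lower term of the ratio, had 11 to 21 counts in budesonide livers. LYVE1 had 15 to 22 counts in PVWM of unventilated lambs.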
